A study of Homo sapiens with 12 samples.

Results

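The insulin-like growth factor (IGF) axis was followed through 10 genes: the ligand gene IGF2, its neighbour H19, the receptor gene IGF1R and the 7 binding protein genes IGFBP1 to IGFBP7. They were taken by name from the 58830 entries of the gene table, and all 10 were among the 20456 entries with enough reads to be tested (a normalized count of at least 10 in at least 3 libraries). RNA was sequenced from A549, an established human lung adenocarcinoma line of epithelial origin. The Sm22mut derivative of A549, whose labelled genotype is a knockout of the miR22 target site of SNAI1, was grown with 10 ng/mL TGFβ or untreated. Wild type (WT) A549 was grown with 10 ng/mL TGFβ or untreated as well, and all cells were taken at day 5. Each of the 4 groups held 3 libraries, which the labels call biological repeats, and p-values measure the spread between them. Only 1 derivative was studied, and effects of the edit and of deriving the line cannot be told apart. These are bulk libraries, in which fewer cells making an RNA and less RNA per cell cannot be told apart.

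IGF2 is a secreted growth factor that acts through the tyrosine kinase receptor encoded by IGF1R. H19 is a long non-coding RNA gene beside IGF2. In normal tissue both are imprinted: IGF2 is read from the paternal copy and H19 from the maternal copy, under a shared imprinting control region, and imprinting is often lost in tumours. IGFBP1 to IGFBP6 bind IGFs with high affinity, hold them in the extracellular space and are cut by secreted proteases that release the ligand. IGFBP7 is a related secreted protein that binds IGFs only weakly. In epithelial cells TGFβ acts through SMAD factors and induces SNAI1, a zinc finger repressor that binds E-box sequences.

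The mature microRNAs that belong to this design are shown first, from RefSeq (GRCh38.p14), because miR-22 is the microRNA of the edited link and miR-675 is cut from H19. Capitals mark the seed, bases 2 to 8, and no seed was shared among them.
hsa-miR-22-3p: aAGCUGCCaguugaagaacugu
hsa-miR-675-5p: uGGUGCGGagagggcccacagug
hsa-miR-675-3p: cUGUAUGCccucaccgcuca
The row of the miR-675 precursor, MIR675, was listed at 0 in all 12 libraries, and mature microRNAs were not measured here. MIR675 lies within H19, and how reads shared by overlapping rows were counted is not given. MIR22HG, the host transcript of miR-22, had a mean normalized count of 4607 ± 397 in Sm22mut with TGFβ and 2768 ± 225 in untreated Sm22mut. In WT it had 5073 ± 96.7 with TGFβ and 2532 ± 266 untreated (SD, n = 3).

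Promoter sequence is shown for the members whose response to TGFβ differed between the lines and that are in the RefSeq promoter table, H19 and IGFBP3, and for IGFBP5, which rose in both. The promoters shown were chosen after the values were seen. Each line is the 250 bases before the RefSeq start, 5′ to 3′ on the gene's strand. Capitals mark the E-box CAGGTG, or its reverse complement CACCTG, a word bound by SNAI1 and related factors.
H19 (GRCh38.p14, chr11:2001267-2001516, minus strand): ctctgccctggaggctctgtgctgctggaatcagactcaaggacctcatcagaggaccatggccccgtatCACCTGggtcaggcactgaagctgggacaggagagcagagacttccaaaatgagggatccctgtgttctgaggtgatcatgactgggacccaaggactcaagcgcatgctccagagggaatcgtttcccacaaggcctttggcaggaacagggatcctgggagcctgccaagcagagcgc
IGFBP3 (GRCh38.p14, chr7:45921273-45921522, minus strand): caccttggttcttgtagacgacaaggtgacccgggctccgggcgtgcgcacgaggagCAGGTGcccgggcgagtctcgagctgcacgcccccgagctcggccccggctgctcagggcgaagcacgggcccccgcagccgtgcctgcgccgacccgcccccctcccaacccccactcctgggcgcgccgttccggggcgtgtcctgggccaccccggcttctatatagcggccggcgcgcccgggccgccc
IGFBP5 (GRCh38.p14, chr2:216695550-216695799, minus strand): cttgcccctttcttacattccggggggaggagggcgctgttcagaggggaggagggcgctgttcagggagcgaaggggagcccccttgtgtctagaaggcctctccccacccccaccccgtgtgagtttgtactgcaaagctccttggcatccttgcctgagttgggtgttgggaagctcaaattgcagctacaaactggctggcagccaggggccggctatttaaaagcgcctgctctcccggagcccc
The E-box was 180 bases before the RefSeq start in H19 and 193 in IGFBP3, and these letters were not in the IGFBP5 window. The GENCODE positions given below start H19 (2001470) and IGFBP3 (45921874) farther upstream. By those positions, both E-boxes lie inside the gene. Of the 7 members in the table, H19, IGFBP2, IGFBP3 and IGFBP6 held it, against 17.5% of all 27305 promoters searched on both strands. No line difference in the TGFβ response was detected for IGFBP2 and IGFBP6, which held it. The same was so for IGF1R, IGFBP4 and IGFBP5, which did not hold it. The SMAD word CAGACA, or its reverse complement TGTCTG, was in none of the 7, against 13.6% of all promoters. IGF2, IGFBP1 and IGFBP7 are not in that table and are named only. These matches are descriptions of the letters and were not tested for binding.

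Library depth was 84210775 to 111141708 recovered reads. All 9 markers of lung adenocarcinoma epithelium were detected in every library, with the lowest single value 17.6 (CLDN7 in WT with TGFβ). With TGFβ, 8 of the 9 fell and 1 rose in each line. Their summed level was 631108 to 733812 in Sm22mut with TGFβ and 1176105 to 1222753 untreated. In WT it was 625696 to 803736 with TGFβ and 1308457 to 1483899 untreated. A large part of these sums was AKR1B10 alone, with a mean of 139601 in Sm22mut with TGFβ and 483912 untreated. In WT its mean was 152510 with TGFβ and 736483 untreated, so the fall of the sum rests largely on this gene. The summed level of 6 fibroblast markers was 1644 to 1989 in Sm22mut with TGFβ and 178 to 248 in untreated Sm22mut, and 1203 to 1398 in WT with TGFβ and 143 to 185 in untreated WT. Of those 6, the 4 with enough reads to test rose with TGFβ in each line. The fibroblast gene DPT was at 0 in both untreated groups and at most 6.71 with TGFβ, and DCN was at most 18.2 in any library. The summed level of 6 endothelial markers was at most 195 and that of 6 leukocyte markers at most 130.0 in any library. The part of any such cells in the results below was not tested. SNAI1 had a mean of 1313 ± 96.5 in Sm22mut and 875 ± 97.2 in WT with TGFβ, and 481 ± 43.4 in Sm22mut and 496 ± 88.6 in WT untreated (SD, n = 3). The labels name a target site rather than a lost gene, so SNAI1 reads give no check of the genotype.

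With TGFβ, IGF2, IGFBP5 and IGFBP7 rose by 19.7-fold or more in each line, H19 fell, and IGF1R, IGFBP2 and IGFBP4 rose by smaller amounts. IGFBP1 and IGFBP6 fell in both lines. IGFBP3 rose with TGFβ in WT and gave no detected change in Sm22mut, where its untreated level was already 2.04-fold that of WT. Values below are normalized counts as deposited, fold changes, with their standard errors, are differences of log2(value + 1), and a gene is said to have risen or fallen where its Benjamini-Hochberg adjusted p in limma was under 0.05.

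**Figure D1:**
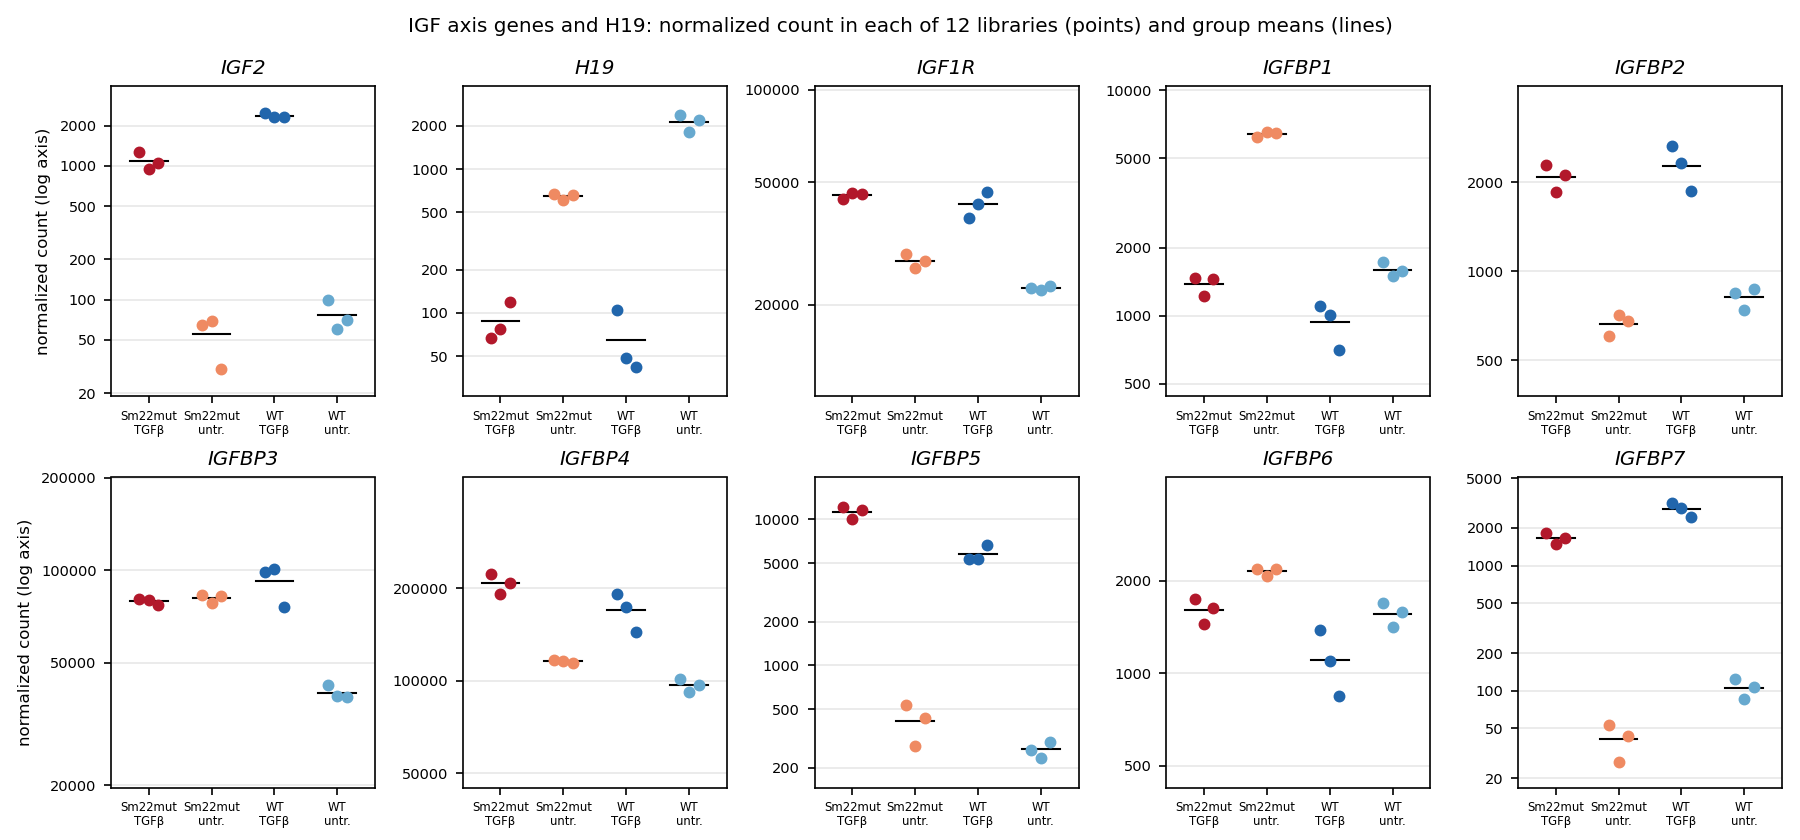
Normalized count (log axis) of the 10 genes in each of the 12 libraries; points are libraries, lines are means of 3 libraries, and each panel has its own range. IGF2, IGFBP5 and IGFBP7 sit far higher with TGFβ in both lines, H19 far lower, and IGFBP3 is low in untreated WT alone among the 4 groups.

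TGFβ raised 6 of the 10 members and lowered 3 in Sm22mut, where 32.1% of all tested genes rose and 30.7% fell. In WT it raised 7 and lowered 3, where 30.8% of all tested genes rose and 30.9% fell. So 9 members passed in Sm22mut against 62.8% of all genes, and 10 in WT against 61.7%. The median absolute log2 fold change of the members was 1.92 in Sm22mut, against 0.57 for all tested genes, and 1.33 in WT, against 0.55. The members were chosen with earlier results of these data known, so no conclusion about the axis is drawn from these counts and medians. Members whose treated and untreated libraries did not overlap were 9 in Sm22mut, all but IGFBP3, where 69.2% of all tested genes did not overlap, and 10 in WT, where 64.2% did not.

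**Figure D2:**
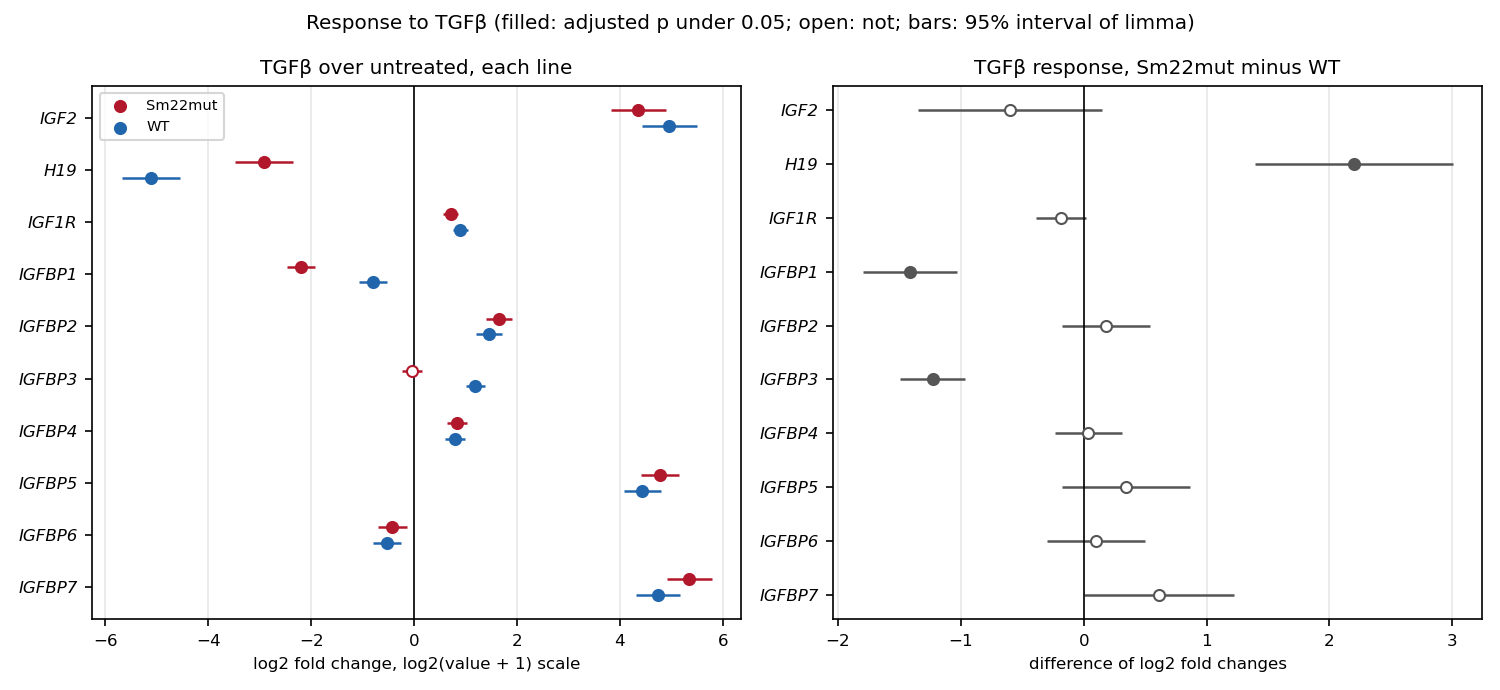
Left, log2 fold change of TGFβ over untreated in Sm22mut and WT; right, the difference of these responses, Sm22mut minus WT. Points are limma estimates, bars their 95% intervals, and filled points have an adjusted p under 0.05. On the right, H19, IGFBP1 and IGFBP3 are filled. The interval of IGFBP7 there (0.006 to 1.22) also leaves out 0, but its adjusted p did not pass.

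IGF2 (ENSG00000167244.19, GRCh38 chromosome 11, 2129112 to 2149603, minus strand), the ligand gene, was low in untreated cells of both lines. In Sm22mut, IGF2 had 1260.1, 952 and 1045 normalized counts with TGFβ, against 65.0, 69.7 and 30.2 untreated. In WT, IGF2 had 2469, 2307 and 2308 with TGFβ, against 99.7, 60.1 and 69.8 untreated. Treated and untreated libraries lay far apart in each line, and with TGFβ every Sm22mut library lay below every WT library. The log2 fold change with TGFβ was 4.36 ± 0.25 in Sm22mut (adjusted p = 2.16e-10) and 4.96 ± 0.25 in WT (adjusted p = 4.76e-11), or 19.7-fold and 30.8-fold by the ratio of means.

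Between the lines with TGFβ, IGF2 was lower in Sm22mut (log2 fold change -1.13 ± 0.25, adjusted p = 0.00756). Untreated, the libraries overlapped and the difference did not pass (-0.53 ± 0.25, adjusted p = 0.124), with values of -0.74 to -0.15 when single libraries were left out, the value nearest 0 without replicate 3 of Sm22mut. The difference of the TGFβ responses was -0.60 ± 0.35 (95% interval -1.35 to 0.15, adjusted p = 0.277). It passed without replicate 3 of untreated Sm22mut, the lowest of all 12 libraries for IGF2 (-0.98, adjusted p = 0.0142; range of adjusted p over 23 alternatives 0.0142 to 0.526). That library held 37 recovered reads of IGF2.

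The antisense row IGF2-AS had 6.83 to 17.2 normalized counts in Sm22mut with TGFβ and 0 to 2.06 untreated, and 15.3 to 20.9 in WT with TGFβ and 0 to 2.15 untreated. The sources used here do not say whether the counting used strand, so reads of IGF2 and IGF2-AS cannot be told apart where they overlap. The read-through row INS-IGF2 and the microRNA row MIR483, which lies within IGF2, were at 0 in all libraries. How reads shared by overlapping rows were counted is not given, so these values do not show that the RNAs were absent. HOTS, MIR483HG and IRAIN were looked for, and no entry had these names.

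H19 (ENSG00000130600.18, chromosome 11, 1995176 to 2001470, minus strand) lies 127641 bases from IGF2 and moved the other way with TGFβ. In Sm22mut, H19 had 66.8, 77.5 and 119 normalized counts with TGFβ, against 672, 612 and 665 untreated. In WT, H19 had 104, 48.9 and 42.0 with TGFβ, against 2361, 1820.0 and 2179 untreated. The lines stood apart when untreated, with every Sm22mut library below every WT library, and overlapped with TGFβ. The fall with TGFβ was -2.91 ± 0.27 in Sm22mut (7.39-fold lower, adjusted p = 7.65e-08) and -5.11 ± 0.27 in WT (32.6-fold lower, adjusted p = 7.78e-11).

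H19 was lower in untreated Sm22mut than in untreated WT (-1.70 ± 0.27, adjusted p = 0.000165). With TGFβ the difference was 0.50 ± 0.27 and did not pass (95% interval -0.07 to 1.07, adjusted p = 0.259). It passed without replicate 1 of WT with TGFβ, the highest of that group (0.90, adjusted p = 0.00626; range of adjusted p over 24 alternatives 0.00626 to 0.666), and the difference was 0.25 without replicate 3 of that group and 0.26 without replicate 3 of Sm22mut with TGFβ. The response to TGFβ differed between the lines by 2.20 ± 0.38 (adjusted p = 0.000953), so the fall was smaller in Sm22mut.

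IGF1R (ENSG00000140443.14, chromosome 15, 98648539 to 98964530, plus strand), the receptor gene, was abundant in every group. In Sm22mut, IGF1R had 44255, 46340.1 and 45836 normalized counts with TGFβ, against 29289, 26293 and 27670.4 untreated. In WT, IGF1R had 38289, 42436 and 46418 with TGFβ, against 22646, 22302 and 23038 untreated. Treated libraries were above untreated ones in each line without overlap. IGF1R rose with TGFβ by 0.71 ± 0.07 in Sm22mut (adjusted p = 1.16e-07) and 0.90 ± 0.07 in WT (adjusted p = 7.71e-09).

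Untreated, IGF1R was higher in Sm22mut than in WT by 0.29 ± 0.07 (adjusted p = 0.00371). With TGFβ the libraries of the lines overlapped and the difference was 0.11 ± 0.07 (95% interval -0.04 to 0.25, adjusted p = 0.358). The difference of responses was -0.19 ± 0.10 (adjusted p = 0.213), and it passed without replicate 1 of WT with TGFβ (-0.26, adjusted p = 0.0378; range of adjusted p over 23 alternatives 0.0378 to 0.398).

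IGFBP1 (ENSG00000146678.9, chromosome 7, 45888357 to 45893668, plus strand) encodes a binding protein that in liver is held down by insulin. It was highest in untreated Sm22mut. In Sm22mut, IGFBP1 had 1478, 1229.7 and 1458 normalized counts with TGFβ, against 6182, 6515 and 6449.9 untreated. In WT, IGFBP1 had 1109, 1013 and 704 with TGFβ, against 1736, 1500.3 and 1575 untreated. The Sm22mut libraries lay above the WT libraries in each condition without overlap.

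IGFBP1 fell with TGFβ by 2.20 in Sm22mut (-2.20 ± 0.13, adjusted p = 2.67e-10) and by 0.79 in WT (-0.79 ± 0.13, adjusted p = 5.27e-05), and the responses differed by -1.41 ± 0.18 (adjusted p = 0.00011). Untreated, it was 3.98-fold higher in Sm22mut than in WT (1.99 ± 0.13, adjusted p = 2.1e-08). With TGFβ it was higher in Sm22mut by 0.58 ± 0.13 (adjusted p = 0.00754), and by 0.38 without replicate 3 of WT with TGFβ (adjusted p = 0.00579; range of adjusted p over 24 alternatives 0.000272 to 0.0467).

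IGFBP3 (ENSG00000146674.14, chromosome 7, 45912245 to 45921874, minus strand), the main carrier of IGFs in serum, lies 18576 bases from IGFBP1. In Sm22mut, IGFBP3 had 80792, 80009 and 77316 normalized counts with TGFβ, against 83115, 78479 and 82616 untreated. In WT, IGFBP3 had 98882, 101149 and 76187 with TGFβ, against 42297, 38850.1 and 38781 untreated. All 6 Sm22mut libraries lay within the range of WT with TGFβ, and untreated WT lay below the other 3 groups.

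IGFBP3 rose with TGFβ in WT by 1.19 ± 0.09 (2.30-fold, adjusted p = 6.08e-09). In Sm22mut the change was -0.04 ± 0.09 with a 95% interval of -0.22 to 0.15 (adjusted p = 0.739), and the responses differed by -1.23 ± 0.12 (adjusted p = 1.48e-05). Untreated, it was higher in Sm22mut than in WT by 1.03 ± 0.09 (adjusted p = 4.31e-07). With TGFβ the difference was -0.20 ± 0.09 and did not pass (adjusted p = 0.158), but it passed without replicate 3 of WT with TGFβ, the lowest of that group (-0.33, adjusted p = 0.00102; range of adjusted p over 24 alternatives 0.00102 to 0.482).

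That library was also the lowest of its group for H19, IGFBP1, IGFBP2, IGFBP4, IGFBP6 and IGFBP7. It was the highest of its group for IGF1R (46418) and IGFBP5 (6658), and lay between the others for IGF2. Its share of mitochondrial reads was 2.73%, against 3.79% in replicate 1 and 3.22% in replicate 2. In the other 3 groups the share was 2.20% to 2.83%. The part of this drift in the results was not tested, and each call that it changes is given with and without the library.

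IGFBP5 (ENSG00000115461.4, chromosome 2, 216672105 to 216695525, minus strand) encodes a binding protein that also attaches to extracellular matrix. In Sm22mut, IGFBP5 had 12096, 9990.3 and 11631 normalized counts with TGFβ, against 535, 283 and 438 untreated. In WT, IGFBP5 had 5386, 5342 and 6658 with TGFβ, against 265, 232 and 301 untreated. The treated libraries of Sm22mut lay above those of WT without overlap, and the untreated ones overlapped. It rose by 4.79 ± 0.17 in Sm22mut (26.8-fold, adjusted p = 6.71e-13) and 4.44 ± 0.17 in WT (21.8-fold, adjusted p = 1.92e-12).

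With TGFβ, IGFBP5 was 1.94-fold higher in Sm22mut than in WT (0.96 ± 0.17, adjusted p = 0.00187). Untreated, it was higher by 0.61 ± 0.17 (adjusted p = 0.0129), but the call was lost without replicate 2 of untreated WT (0.52) or replicate 1 of untreated Sm22mut (0.41, adjusted p = 0.0569 and 0.0789 for these, in a range of 0.000246 to 0.0789 over 24 alternatives). The responses differed by 0.35 ± 0.24 (95% interval -0.17 to 0.87, adjusted p = 0.376).

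IGFBP7 (ENSG00000163453.11, chromosome 4, 57030773 to 57110385, minus strand) was the member with the largest rise in Sm22mut. In Sm22mut, IGFBP7 had 1830.1, 1499 and 1672 normalized counts with TGFβ, against 53.6, 26.8 and 43.3 untreated. In WT, IGFBP7 had 3159, 2862 and 2443 with TGFβ, against 124, 85.7 and 106 untreated. Sm22mut lay below WT in each condition without overlap. The log2 fold change with TGFβ was 5.35 ± 0.20 in Sm22mut (40.4-fold, adjusted p = 1.17e-12) and 4.74 ± 0.20 in WT (26.8-fold, adjusted p = 5.82e-12).

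IGFBP7 was lower in Sm22mut than in WT when untreated (-1.37 ± 0.20, adjusted p = 9.28e-05), where Sm22mut libraries held 25 to 53 recovered reads of it. With TGFβ it was lower in Sm22mut as well (-0.76 ± 0.20, adjusted p = 0.0227). It no longer passed when replicate 1 or 2 of WT with TGFβ, or replicate 2 or 3 of Sm22mut with TGFβ, was removed (-0.76 to -0.67, adjusted p = 0.0635 to 0.0865). The difference of responses was 0.61 ± 0.29 (adjusted p = 0.163). The antisense row IGFBP7-AS1 had a mean of 15.9 ± 4.47 in Sm22mut with TGFβ and 16.6 ± 3.14 in WT with TGFβ, and was at 0 in every untreated library.

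IGFBP2 (ENSG00000115457.9, chromosome 2, 216632828 to 216664436, plus strand), a binding protein gene that lies 7668 bases from IGFBP5, rose less than its neighbour. In Sm22mut, IGFBP2 had 2285, 1851 and 2109 normalized counts with TGFβ, against 604, 710.1 and 681 untreated. In WT, IGFBP2 had 2642, 2313 and 1861 with TGFβ, against 845, 739 and 868 untreated. The rise was 1.64 ± 0.12 in Sm22mut (adjusted p = 4.08e-09) and 1.46 ± 0.12 in WT (adjusted p = 1.93e-08), and treated and untreated libraries did not overlap.

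Untreated, every Sm22mut library was below every WT library for IGFBP2, but the difference of -0.30 ± 0.12 did not pass (adjusted p = 0.0683). It passed in 4 of 24 alternatives, and adjusted p over the alternatives was 0.0179 to 0.230. The main fit draws its spread from all 4 groups, and 1 of these 4 alternatives fitted the 2 untreated groups alone (adjusted p = 0.0179). The other 3 left out a library. Those libraries were replicate 2 of untreated WT (-0.37) and replicates 1 and 3 of WT with TGFβ (-0.30 each). With TGFβ the difference was -0.12 ± 0.12 (95% interval -0.37 to 0.14, adjusted p = 0.599), and the responses differed by 0.18 ± 0.17 (adjusted p = 0.519).

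IGFBP4 (ENSG00000141753.6, chromosome 17, 40443461 to 40457731, plus strand), whose protein is the main substrate of the protease PAPP-A, had the highest counts of the members. In Sm22mut, IGFBP4 had 223013, 192315 and 207526 normalized counts with TGFβ, against 116592, 116331 and 114547 untreated. In WT, IGFBP4 had 191979, 173680 and 144687 with TGFβ, against 101058, 92339 and 97193 untreated. Treated libraries lay above untreated ones, and Sm22mut above WT in each condition, though with TGFβ the lowest Sm22mut and highest WT library nearly met. IGFBP4 rose with TGFβ by 0.84 ± 0.09 in Sm22mut (adjusted p = 5.69e-07) and 0.80 ± 0.09 in WT (adjusted p = 1.02e-06).

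IGFBP4 was slightly higher in Sm22mut than in WT, and these calls were the least stable of the members. Untreated, the difference was 0.26 ± 0.09 (adjusted p = 0.0399), and the call was lost in 9 of 24 alternatives, 8 of them the removal of one library, namely any untreated library of either line, replicate 2 of WT with TGFβ or replicate 3 of Sm22mut with TGFβ (0.22 to 0.29, adjusted p = 0.0544 to 0.123). With TGFβ it was 0.29 ± 0.09 (adjusted p = 0.0467), and the call was lost in 12 of 24, 10 of them the removal of one library, namely any untreated library of either line, replicate 2 or 3 of WT with TGFβ or replicate 1 or 3 of Sm22mut with TGFβ (0.18 to 0.31, adjusted p = 0.0562 to 0.163). Without replicate 3 of WT with TGFβ that difference was 0.18 (adjusted p = 0.0954). The difference of responses was 0.04 ± 0.13 (95% interval -0.24 to 0.31, adjusted p = 0.892), and its sign depended on the scaling and on single libraries.

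IGFBP6 (ENSG00000167779.8, chromosome 12, 53097436 to 53102345, plus strand) encodes the binding protein that prefers IGF2. In Sm22mut, IGFBP6 had 1742, 1444 and 1634 normalized counts with TGFβ, against 2179, 2082 and 2179.9 untreated. In WT, IGFBP6 had 1379, 1099.8 and 844 with TGFβ, against 1695, 1419 and 1584 untreated. Treated libraries lay below untreated ones in each line without overlap, by a narrow margin in WT. IGFBP6 fell with TGFβ by 0.42 in Sm22mut (-0.42 ± 0.13, adjusted p = 0.0109) and by 0.52 in WT (-0.52 ± 0.13, adjusted p = 0.00264).

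The IGFBP6 call in Sm22mut was lost without replicate 2 of Sm22mut with TGFβ (-0.35, adjusted p = 0.0562; range over 24 alternatives 0.000174 to 0.0562). In WT the fall was -0.34 without replicate 3 of WT with TGFβ (adjusted p = 0.00869; range over 24 alternatives 2.53e-05 to 0.0161). IGFBP6 was higher in Sm22mut than in WT, by 0.46 ± 0.13 untreated (adjusted p = 0.0146) and 0.56 ± 0.13 with TGFβ (adjusted p = 0.0113), without overlap of the libraries. The untreated call was lost without replicate 2 of untreated WT (0.39, adjusted p = 0.0628). The call with TGFβ was lost without replicate 1 of Sm22mut with TGFβ (0.50, adjusted p = 0.0523) and when the 2 groups were fitted alone (adjusted p = 0.0539). The responses differed by 0.10 ± 0.19 (95% interval -0.30 to 0.50, adjusted p = 0.770), and by -0.0797 without replicate 3 of WT with TGFβ.

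**Figure D3:**
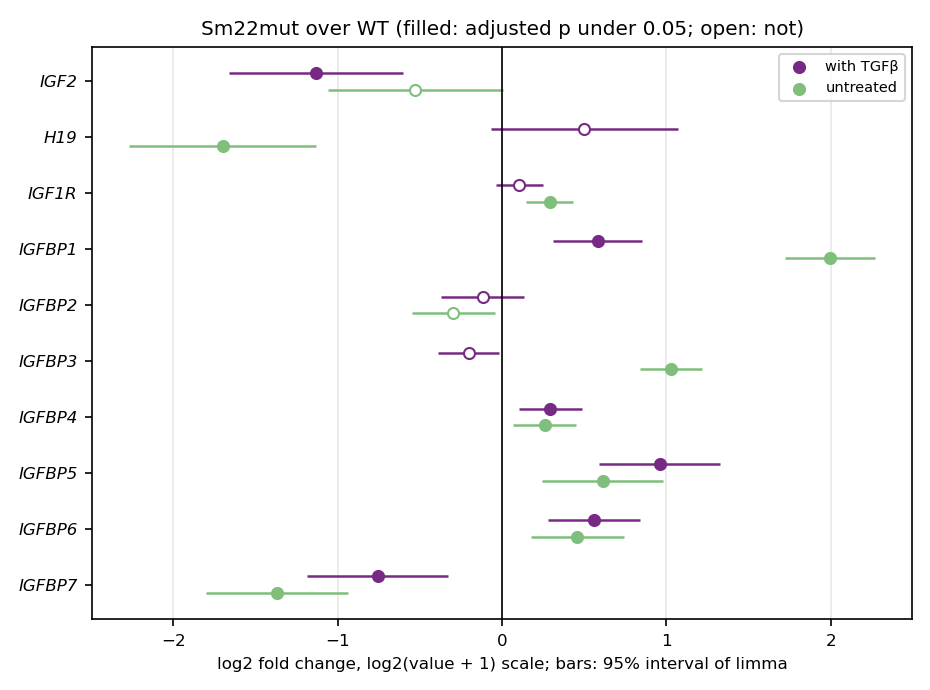
Log2 fold change of Sm22mut over WT with TGFβ and untreated for the 10 genes. Points are limma estimates, bars their 95% intervals, and filled points have an adjusted p under 0.05; the untreated points of H19 (-1.70), IGFBP1 (1.99), IGFBP3 (1.03) and IGFBP7 (-1.37) lie farthest from 0.

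Counted over the members, Sm22mut was higher than WT for 4 and lower for 2 with TGFβ, where 7.38% of all tested genes were higher and 4.32% lower (11.7% in all). Untreated, it was higher for 6 and lower for 2, where 14.3% of all tested genes were higher and 17.5% lower (31.8% in all). These counts rest partly on single libraries. With TGFβ the 4 higher became 2 without replicate 1 of Sm22mut with TGFβ and when the 2 groups were fitted alone, and the 2 lower became 1 without replicate 1 or 2 of WT or replicate 2 or 3 of Sm22mut with TGFβ. Untreated, without replicate 2 of untreated WT, 3 members were higher and 3 lower. The response to TGFβ differed between the lines for 3 members, with H19 above 0 and IGFBP1 and IGFBP3 below, against 10.6% of all tested genes above and 6.02% below (16.6% in all). The median absolute difference between lines was 0.53 for the members and 0.18 for all tested genes with TGFβ, and 0.57 and 0.27 untreated. These comparisons share groups of libraries with the TGFβ comparisons, so they are not independent of them. Because the members were chosen with earlier results of these data known, the counts and medians between lines are descriptions only.

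Levels of different genes were compared per kb of exon (GENCODE 29). IGFBP4 had the highest level per kb in every group, at 94372 ± 6977 in Sm22mut with TGFβ, 52647 ± 506 in untreated Sm22mut, 77325 ± 10839 in WT with TGFβ and 44029 ± 1986 in untreated WT (SD, n = 3). IGFBP3 was next in every group, at 8746 ± 439.8 to 20143 ± 3020 per kb, and the libraries of both genes did not overlap. IGF1R came after them, except in untreated Sm22mut, where IGFBP1 (3861 ± 107) stood above it (1991 ± 108). The lowest member was H19 with TGFβ, at 30.4 ± 9.60 per kb in Sm22mut and 22.5 ± 11.8 in WT, and IGF2 untreated, at 7.88 ± 3.09 in Sm22mut and 10.97 ± 2.95 in WT. Neighbours in the order whose libraries overlapped were IGFBP7 and IGFBP1 in Sm22mut with TGFβ. In WT with TGFβ they were IGFBP5 with IGFBP6, IGFBP6 with IGFBP1 and IGFBP1 with IGFBP2, and in untreated WT they were IGFBP7 with IGFBP5.

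**Figure D4:**
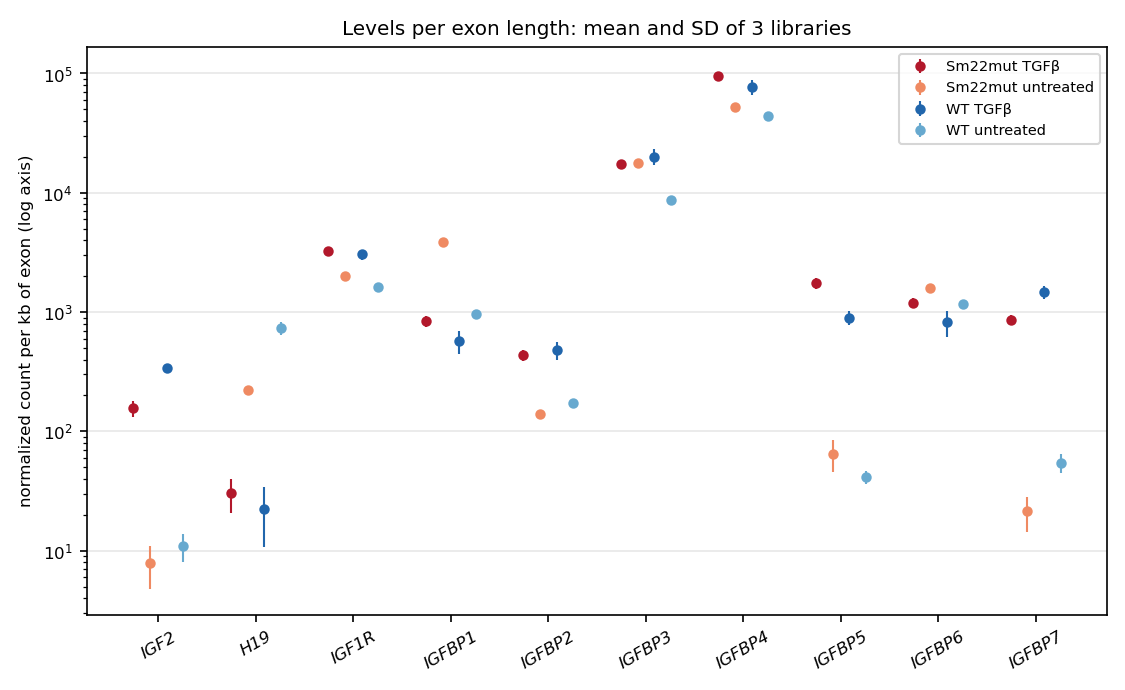
Normalized count per kb of exon (log axis) of the 10 genes in the 4 groups; points are means and bars SD of 3 libraries. IGFBP4 and IGFBP3 stand above the other members in every group, and IGF2, H19, IGFBP5 and IGFBP7 span the widest range between groups.

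Of the 5 other ligands and receptors of the axis (IGF1, INS, IGF2R, INSR and INSRR), 3 had enough reads to test. With TGFβ, 2 of them rose in Sm22mut and 3 in WT. This list and those below were chosen with earlier results of these data known. Their counts stand against the shares of all tested genes. With TGFβ, 32.1% of these rose and 30.7% fell in Sm22mut, and 30.8% rose and 30.9% fell in WT. Sm22mut was higher than WT for 7.38% and lower for 4.32% with TGFβ, and higher for 14.3% and lower for 17.5% untreated. IGF2R, the receptor that clears IGF2 without kinase signalling, was 10717 ± 1394 with TGFβ and 8740.4 ± 796 untreated in Sm22mut and did not pass (0.29 ± 0.14, adjusted p = 0.0747). In WT it rose, to 10477 ± 2509 with TGFβ, against 6990 ± 579.5 untreated (0.56 ± 0.14, adjusted p = 0.00201). Between the lines, 0 of the 3 passed in either condition in limma, edgeR or DESeq2, and 1 in each condition had an unadjusted p under 0.05.

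Of 20 genes of signalling below the receptor, 18 were tested, and with TGFβ 10 rose and 3 fell in Sm22mut and 9 rose and 4 fell in WT. Among all tested genes, 62.8% passed in Sm22mut and 61.7% in WT. GRB10, an adaptor that restrains the receptor, rose to 26765 ± 425 in Sm22mut with TGFβ, against 8463 ± 162 untreated (1.66 ± 0.05, adjusted p = 1.78e-13), and to 28424 ± 892 in WT, against 7991 ± 433 (1.83 ± 0.05, adjusted p = 5.65e-14). IRS2, a docking protein of the receptor, fell to 5269 ± 216 in Sm22mut with TGFβ, against 18175 ± 28.5 untreated, and to 5559 ± 283 in WT, against 14199 ± 158. The response of its relative IRS1 was larger in Sm22mut (difference 0.73 ± 0.09, adjusted p = 7.41e-05) and that of IRS2 was a larger fall (-0.43 ± 0.08, adjusted p = 0.00115). Of the 18, Sm22mut was higher for 3 and lower for 1 with TGFβ, and higher for 2 and lower for 6 untreated.

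Of 12 proteases of the binding proteins, their inhibitors and partners, 11 were tested, and 5 rose and 2 fell with TGFβ in each line. This is close to the share of all tested genes that passed, 62.8% in Sm22mut and 61.7% in WT. The stanniocalcins, which inhibit PAPP-A proteases, moved apart: STC1 rose to 11410.4 ± 402 in Sm22mut with TGFβ, against 1503 ± 223 untreated, and STC2 fell to 1804 ± 529, against 19293 ± 1171. In WT, STC1 rose to 8619 ± 459, against 932 ± 67.8, and STC2 fell to 1488 ± 228, against 21351 ± 170. HTRA1, a secreted serine protease that can cut IGFBP5, rose to 5458 ± 567 in Sm22mut, against 767 ± 69.7, and to 4777 ± 465 in WT, against 711 ± 82.2.

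PAPPA, the gene of the protease PAPP-A that cuts IGFBP4, was higher in Sm22mut than in WT untreated (16271 ± 1384 and 8756 ± 772; 0.89 ± 0.16, adjusted p = 0.000531). With TGFβ it was 18283 ± 1960 in Sm22mut and 12051 ± 3990 in WT (0.65 ± 0.16, adjusted p = 0.0157). It no longer passed without replicate 2 of WT with TGFβ (0.62), replicate 2 or 3 of Sm22mut with TGFβ (0.58 and 0.63), and when these 2 groups were fitted alone (adjusted p over these 0.0620 to 0.0676). In all, 4 of the 11 were higher in Sm22mut in each condition and 0 lower in limma, edgeR and DESeq2, and at an unadjusted p under 0.05 limma gave 0 lower with TGFβ and 1 lower untreated.

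Of 16 imprinted growth genes and regulators of imprinting, 13 were tested, and 5 rose and 3 fell with TGFβ in Sm22mut and 6 rose and 3 fell in WT. These counts are near the share of all tested genes that passed, 62.8% in Sm22mut and 61.7% in WT. MEG3, an imprinted long non-coding RNA, rose to 2098 ± 611 in Sm22mut with TGFβ, against 168 ± 11.1 untreated, and to 4553 ± 1225 in WT, against 299 ± 55.5. With TGFβ it was lower in Sm22mut than in WT (-1.12 ± 0.20, adjusted p = 0.00155), and it was lower untreated as well (-0.82 ± 0.20, adjusted p = 0.00473). DNMT1, the maintenance DNA methyltransferase, was lower in untreated Sm22mut (6710.0 ± 389) than in untreated WT (10149 ± 240; -0.60 ± 0.08, adjusted p = 5.59e-05).

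Of 3 genes of RNA-binding proteins named for IGF2 mRNA, with TGFβ 2 rose and 1 fell in Sm22mut and 1 rose and 1 fell in WT. IGF2BP1 was the most abundant by count, at 19126 ± 465 in Sm22mut with TGFβ and 15733 ± 254 untreated, and 20386 ± 2066 in WT with TGFβ and 16772 ± 670 untreated (0.28 ± 0.07 in each line).

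FOXO factors, which IGF signalling through AKT keeps out of the nucleus, and their targets were all tested (12 genes). With TGFβ, 4 rose and 6 fell in Sm22mut and 5 rose and 6 fell in WT, where 62.8% and 61.7% of all tested genes passed. FOXO1, one of the factors, rose to 4481 ± 249 in Sm22mut, against 1112 ± 29.2 untreated, and to 3960 ± 299 in WT, against 1401 ± 78.1. Its response was larger in Sm22mut (difference 0.51 ± 0.10, adjusted p = 0.00281). PDK4, a mitochondrial kinase and FOXO target, fell to 3702 ± 264 in Sm22mut, against 26682 ± 1009 untreated, and to 2320 ± 104 in WT, against 23224 ± 833. TXNIP, an inhibitor of thioredoxin, was higher in Sm22mut than in WT by 0.87 ± 0.13 with TGFβ (adjusted p = 0.000578) and 1.40 ± 0.13 untreated (adjusted p = 1.26e-06). IGFBP1 is itself a known FOXO target in liver.

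Outside the axis, the genes whose pattern over the 12 libraries was most like each member are given as a description, by Pearson's r of log2(value + 1) among 12907 candidates. The 12 libraries fall into 4 groups, so r largely reflects the group means. For IGFBP1 these were DMKN (0.996) and SLC16A4 (0.992), and for IGFBP3 it was PLOD3 (0.966). For H19 they were RASGEF1A (0.993) and PGD (0.992), and for IGF2 PADI1 (0.996) and UBA1 (0.995). For IGF1R they were TENM3 and AHNAK2 (0.993 each), and for IGFBP7 FGFR1 and NFE2L3 (0.997 each). For IGFBP5 they were TNS4 and TNS1 (0.997 each), for IGFBP2 MEIS3 and RHOC (0.996 each), for IGFBP4 PLP2 (0.998) and ALDH1B1 (0.992), and for IGFBP6 ABHD14B (0.987).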

How the data were processed

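RNA was measured in 12 libraries. The authors deposited normalized counts, a signal for each gene. The tools listed in the submitters' processing notes are DESeq2, featureCounts, HISAT2 and StringTie, with the build GRCh38.p14; the sources used here give neither versions nor roles. Dividing each library by its step gave whole reads for 100% of values (tolerance 0.01, largest deviation 0.000336), and each step was the inverse of a median-of-ratios size factor. Depth limits low genes, and SD and SE cover the spread between libraries.

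Entries that reached 10 in 3 or more libraries were tested as log2(value + 1) by limma-trend (limma 3.58.1, R 4.3.3), fitting the 4 group means together, with 5 two-sided comparisons, Benjamini-Hochberg adjustment over 20456 entries and a threshold of 0.05. The scale understates the change of low genes. The test was checked on simulated counts. Of the calls there, 5.1% (Sm22mut against WT with TGFβ) to 9.94% (Sm22mut against WT untreated) were unchanged genes. Changes of 1.5-fold were recovered for 34.3% of changed genes (difference of responses) to 65.7% (Sm22mut against WT with TGFβ). For 4-fold changes it was 84.8% (difference of responses) to 95.5% (TGFβ in Sm22mut). Of each gene list, up to 4 called genes per comparison with a mean of at least 100, by size of change, could be named, and the 2 most like genes per member. Some genes this rule picks are not reported here. Positions and exon lengths came from GENCODE 29 on GRCh38 for symbols in the table. IGF2 has more than a single entry there, and the one that a reference list of gene names pairs with the symbol was used. MicroRNA and promoter sequences came from RefSeq (GRCh38.p14); the promoters shown and miR-22 were chosen after the values were seen. The members and lists were chosen with earlier results of these data known. Alternatives covered the pseudocount, filter, scaling, robust variance, a replicate block, the compared groups alone, each library left out, and edgeR 4.0.16 and DESeq2 1.42.0 on the recovered reads. Figures were drawn with matplotlib 3.10.9 in Python 3.11.15.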

Additional observations from a re-analysis of the deposited data

Results flagged for a closer look

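The test of the difference between the lines singled out 3 members, whose responses to TGFβ were not the same in Sm22mut and WT. H19 fell less in Sm22mut, with a difference of 2.20 ± 0.38 on the log2 scale (adjusted p = 0.000953). IGFBP1 fell more in Sm22mut, with a difference of -1.41 ± 0.18 (adjusted p = 0.00011). IGFBP3 rose in WT and gave no detected change in Sm22mut, with a difference of -1.23 ± 0.12 (adjusted p = 1.48e-05). Over 23 alternatives these differences ran from 1.95 to 2.59 for H19, from -1.61 to -1.28 for IGFBP1 and from -1.36 to -1.16 for IGFBP3, and all 3 calls held. In each case the untreated groups lay farther apart than the treated ones: the log2 fold change of Sm22mut over WT was 0.50 with TGFβ and -1.70 untreated for H19, 0.58 and 1.99 for IGFBP1, and -0.20 and 1.03 for IGFBP3.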

How the results depend on the processing

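Of 50 member results, 36 kept their direction and call in every alternative and 14 did not, all of these given in the report beside their values. Only the difference of responses of IGFBP4 and IGFBP6 changed sign, for IGFBP4 with equal totals (-0.018) and quantile normalization (-0.0274), and over single libraries left out it ran from -0.0762 to 0.128 for IGFBP4 and from -0.0797 to 0.274 for IGFBP6; the cause was not tested. Over all genes, Sm22mut against WT with TGFβ gave 2394 calls, 1444 when these groups were fitted alone, and 1386 to 3841 when one library was left out, the highest without replicate 3 of WT with TGFβ. Its share of calls higher in Sm22mut was 63.1%, against 48.1% with equal totals and 50.4% with quantile normalization, and for the difference of responses 63.7%, against 51.5% and 53.4%. On recovered reads edgeR called 12803 genes for TGFβ in Sm22mut, 12669 for TGFβ in WT, 6529 and 2564 between the lines untreated and with TGFβ, and 3404 for the difference. Same-numbered libraries showed little pairing: of 18 such pairs, 2 had a correlation of deviations over 0.1 (-0.03 to 0.13), and 5 of 12 libraries were closest to one of their own number. With the replicate block the counts were 13096, 12920, 7068, 2987 and 3987 in that order, and no member's call changed. Each was above the main count (12842, 12624, 6514, 2394 and 3395), and a shared effect of replicate number was not tested. Limits are the single derivative, 3 libraries a group, one day, unknown strand, and low reads of IGF2 and IGFBP7 in untreated cells.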
